A study of Mus musculus with 4 samples.

Results

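The genes described here are 10 AP-1 and immediate early genes, namely the AP-1 genes Fos, Fosb, Fosl1, Fosl2, Jun, Junb and Jund together with Egr1, Ier2 and Ier3. They were chosen with earlier results of these data known, and were taken by name. All probe sets that the array annotation assigns to a single one of these symbols were used. This gave 14 of the 45037 probe sets tested and 10 of the 18193 genes represented on the array, and all 10 genes were measured. Fosl1, Fosl2, Jun and Jund had more than 1 probe set each, and the other genes had 1.

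AP-1 is a transcription factor made of pairs of basic leucine zipper proteins. A Jun protein can pair with itself or with a Fos protein, whereas Fos proteins need a Jun partner to bind DNA. Most of these genes are switched on within minutes by serum, growth factors or stress, through serum response factor, its Ets-family partners and MAP kinases, and their transcripts are short-lived. Fosl1 and Fosl2 lack the strong activation domain of Fos and tend to be induced later and for longer, and Fosl1 is also known for its role in trophoblast and placenta.

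RNA came from mouse E14 embryonic stem cells cultured with 1000 units of LIF per ml and 15% serum. Cells were transfected with a short hairpin RNA against Npac, placed in puromycin 24 hours later and selected for 3 days (the group Npac RNAi), or carried a control RNAi under the same selection (the group control RNAi, with a hairpin that the labels do not describe). The gene Npac is now called Glyr1, and its protein sits on nucleosomes of transcribed gene bodies. Each group had 2 Affymetrix arrays, with values deposited on the log2 scale after RMA. The labels do not say that replicates were separate cultures, so p-values measure the spread between these arrays, which may be technical. An exact permutation test of 2 against 2 arrays cannot go below a two-sided p of 0.33, so the tests below are those of limma, fitted over all probe sets.

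The targeted gene Glyr1 read 11.30 and 11.32 in control RNAi and 10.23 and 10.20 in Npac RNAi (log2 difference -1.09, SE 0.0554, limma adjusted p = 0.00171), which left 46.9% of the control level. The 15 embryonic stem cell markers were all measured, with a mean level of 12.01 to 12.02 on the control arrays and 11.58 to 11.60 on the Npac arrays, and 11 of them were lower. Of 15 trophoblast markers, 12 were higher, and their mean level went from 7.87 to 7.90 on the control arrays to 9.33 on both Npac arrays. The mean level of 17 feeder fibroblast markers was 6.96 to 7.03 against 7.29 to 7.36 (5 higher, 2 lower), and that of 15 primitive endoderm markers 8.92 to 8.99 against 9.19 to 9.25 (6 higher, 3 lower). Over all genes 19.3% were higher and 14.6% lower. The shares higher and lower were 0% and 73.3% for stem cell and 80% and 0% for trophoblast markers. They were 29.4% and 11.8% for fibroblast and 40% and 20% for primitive endoderm markers. In these bulk samples a change in the number of cells of a type cannot be told apart from a change in RNA per cell, and the part of these cell types in the results below was not tested. The 24 poly-A spike-in probe sets, bacterial transcripts added before labelling, read 0.54 higher on the log2 scale in Npac RNAi, so each difference below is relative to the bulk of transcripts and is 0.54 lower on the scale of these spike-ins.

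Promoter sequence is shown for 4 of the members that rose: Fos and Jun, whose windows hold motif matches, and Junb and Fosl2, whose windows hold none. Jund and Ier3 also rose, and their windows, which are not shown, hold none either. Each line gives the 250 bases before the annotated start in RefSeq (build GRCm38.p6), 5′ to 3′ on the strand of the gene, at chr12:85473640-85473889 (plus strand) for Fos, chr4:95052223-95052472 (minus strand) for Jun, chr8:84978749-84978998 (minus strand) for Junb and chr5:32136222-32136471 (plus strand) for Fosl2. Capitals mark the matched motifs.
Fos: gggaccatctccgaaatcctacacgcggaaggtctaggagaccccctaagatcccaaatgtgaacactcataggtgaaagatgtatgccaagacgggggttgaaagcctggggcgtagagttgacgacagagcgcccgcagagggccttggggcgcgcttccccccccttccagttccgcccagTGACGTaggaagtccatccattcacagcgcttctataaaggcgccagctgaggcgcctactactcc
Jun: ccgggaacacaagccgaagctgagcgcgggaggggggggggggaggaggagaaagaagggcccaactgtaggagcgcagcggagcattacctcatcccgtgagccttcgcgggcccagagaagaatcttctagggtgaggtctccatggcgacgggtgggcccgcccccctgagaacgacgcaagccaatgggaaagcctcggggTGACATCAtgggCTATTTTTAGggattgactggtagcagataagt
Junb: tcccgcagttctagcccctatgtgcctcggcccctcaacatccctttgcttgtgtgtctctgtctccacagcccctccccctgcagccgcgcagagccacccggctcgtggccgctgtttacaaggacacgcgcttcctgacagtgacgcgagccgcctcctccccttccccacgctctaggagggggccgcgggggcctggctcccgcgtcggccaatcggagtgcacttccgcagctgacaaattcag
Fosl2: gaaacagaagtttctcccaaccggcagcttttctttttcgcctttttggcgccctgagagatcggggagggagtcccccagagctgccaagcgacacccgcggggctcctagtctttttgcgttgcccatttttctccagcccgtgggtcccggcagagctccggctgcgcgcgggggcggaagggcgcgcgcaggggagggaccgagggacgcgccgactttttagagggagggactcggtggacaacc

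The windows were searched on both strands for the AP-1 site TGACTCA, the cAMP response element TGACGTCA and its core TGACGT (which every full element also holds), the variant AP-1 site TGACATCA, the CArG box bound by serum response factor and the MEF2 site. The motifs were chosen with the sequences in view. Fos held TGACGT from 66 to 61 bases before the start, letters found in 6.47% of 32851 promoter windows of the same length. That set of windows, used for every share here, leaves out a whole chromosome. Jun held TGACATCA from 45 to 38 bases before the start (2.93% of windows) and a MEF2 match, CTATTTTTAG, from 33 to 24 bases before it (2.92% of windows). Junb and Fosl2 held no match, nor did the windows of Fosb, Jund and Ier3, and neither TGACTCA (4.46% of windows), TGACGTCA (1.55%) nor the CArG box (1.47%) was in any of the 7 windows. These are matches of letters in a short window, not binding sites. Sequence more than 250 bases before the start, or after it, was not searched, so the absence of a motif holds for the window only. The table held 7 of the 10 members, without Fosl1, Egr1 and Ier2.

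Of the 7 AP-1 genes, 6 rose in Npac RNAi, led by Fosl2 (5.32-fold) and Jun (2.46-fold), with Jund (2.12-fold), Fosl1 (2.11-fold), Junb (2.10-fold) and Fos (1.55-fold) after them. Ier3, an early gene that modulates cell survival, also rose (1.65-fold), Ier2 fell to 58.1% of its control level, and Egr1 and Fosb passed the test in neither direction. Reading each gene from its probe set with the highest mean level, 7 of 10 members were higher and 1 lower at a limma adjusted p under 0.05, against 19.3% of all genes higher and 14.6% lower (33.9% in either direction). Of the members, 5 were called higher and at least 2-fold, against 2.92% of all genes. The median log2 difference was 0.90 over the 10 members and -0.04 over all 18193 genes. By probe set, 9 of 14 were higher (background 14.2%) and 2 lower (background 14%; 28.2% in either direction), and the groups did not overlap in 11 of 14, where 69% of all probe sets showed no overlap. The members were chosen with earlier results of these data known, so these comparisons with the background are descriptive.

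**Figure D1:**
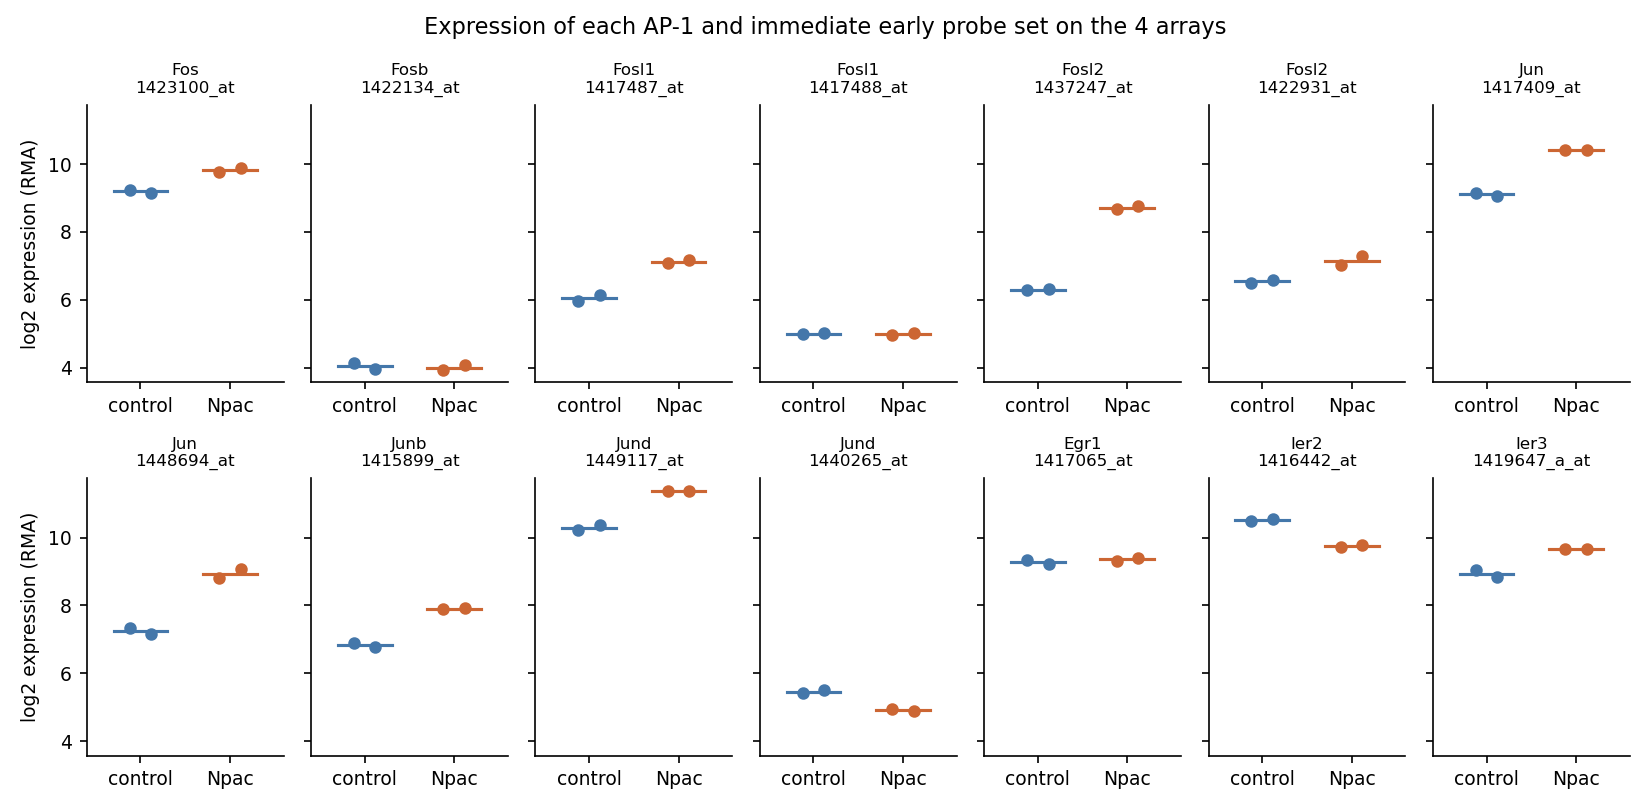
Log2 expression (vertical axis) of the 14 member probe sets, a panel each, on the 2 control RNAi arrays (blue) and the 2 Npac RNAi arrays (orange). Points are arrays and horizontal lines are group means; the brighter Fosl2 probe set goes from 6.30 and 6.31 to 8.67 and 8.77, while the Egr1 arrays of both groups interleave.

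Fosl2, which encodes Fra-2, had the largest difference of the Fos family. Its brighter probe set (1437247_at) read 6.30 and 6.31 in control RNAi and 8.67 and 8.77 in Npac RNAi (log2 difference 2.41, SE 0.0642, limma adjusted p = 0.0011). Both Npac arrays stood far above both control arrays, and only 0.104% of genes had a higher difference. The other Fosl2 probe set (1422931_at) read 6.50 and 6.60 against 7.03 and 7.29, also without overlap, but its difference was 0.61 (SE 0.108, limma adjusted p = 0.021). The probe sets thus gave the same direction and unequal sizes, and their mean gave 1.51. The call on 1422931_at was lost without control array 1 (limma adjusted p = 0.101), control array 2 (0.0942) or Npac array 2 (0.0713), with the crossed replicate block (limma adjusted p = 0.0584, replicates paired across the numbers), without moderation (0.158), and with spike-in scaling, where the log2 difference was 0.07. Its limma adjusted p ran from 0.00232 to 0.575 over the settings.

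Fosl1, which encodes Fra-1, rose on 1 of its 2 probe sets. Probe set 1417487_at read 5.96 and 6.14 in control RNAi and 7.09 and 7.17 in Npac RNAi (log2 difference 1.08, SE 0.0839, limma adjusted p = 0.00365). The groups did not overlap, and the mean level of 6.59 lay just above the median of all probe sets (6.44). Probe set 1417488_at read 4.99 and 5.02 against 4.96 and 5.04, with overlapping groups, at a level below that median. Its difference of -0.01 had a 95% interval of -0.17 to 0.15, so the rise rests on the brighter probe set, and the mean of both gave 0.54.

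Fos, the founding member of the family, was well expressed in both groups. It read 9.24 and 9.15 in control RNAi and 9.76 and 9.88 in Npac RNAi, so the Npac arrays were higher without overlap (log2 difference 0.63, SE 0.0737, limma adjusted p = 0.00832). This rise was of the size of the spike-in shift and fell to 0.09 with spike-in scaling. Its call was also lost without control array 1 (limma adjusted p = 0.0511), control array 2 (0.0656) or Npac array 2 (0.0554), within a range of 3.52e-05 to 0.393 over all settings. Fosb, the paralogue best known from neurons, read 4.15 and 3.98 against 3.95 and 4.07. These values overlap and lie below the 25th percentile of all probe sets (4.84), where an array says little about a change. The difference was -0.06 with a 95% interval of -0.29 to 0.18.

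All 3 Jun genes rose on their brightest probe sets. Jun had the largest difference of them and showed it on both probe sets. Probe set 1417409_at read 9.14 and 9.07 in control RNAi and 10.41 and 10.40 in Npac RNAi (log2 difference 1.30, SE 0.0601, limma adjusted p = 0.00145). Probe set 1448694_at read 7.35 and 7.17 against 8.80 and 9.07 (log2 difference 1.67, SE 0.118, limma adjusted p = 0.00301). Neither probe set had overlapping groups, and the 95% intervals of 1.14 to 1.46 and 1.36 to 1.98 share part of their range.

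Junb, whose protein forms weaker activating pairs than Jun and can oppose it, read 6.89 and 6.79 in control RNAi and 7.90 and 7.92 in Npac RNAi. The Npac arrays were higher without overlap (log2 difference 1.07, SE 0.063, limma adjusted p = 0.00221). Jund, the member known for steady expression in resting cells, had a bright probe set (1449117_at) that read 10.22 and 10.36 against 11.37 on both Npac arrays (log2 difference 1.08, SE 0.0719, limma adjusted p = 0.00268). The other Jund probe set (1440265_at) went the opposite way. It read 5.41 and 5.52 in control RNAi and 4.96 and 4.89 in Npac RNAi, without overlap (log2 difference -0.54, SE 0.0683, limma adjusted p = 0.00987). Its mean level stood at percentile 30.7 of all probe sets, where 1449117_at stood at percentile 92.6, and averaging both gave 0.27. The call on 1440265_at was lost without control array 1 (limma adjusted p = 0.0511), control array 2 (0.0683) or Npac array 2 (0.0664), with a range of 0.000202 to 0.0852 over the settings.

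Outside AP-1 the members did not move as a block. Egr1, a zinc finger factor induced by the same serum response factor route as Fos, read 9.33 and 9.22 in control RNAi and 9.30 and 9.41 in Npac RNAi. The groups overlapped, and the difference of 0.08 had a 95% interval of -0.11 to 0.28 (SE 0.0749, limma adjusted p = 0.435). Ier2, a nuclear early gene product, read 10.50 and 10.56 in control RNAi and 9.73 and 9.77 in Npac RNAi. Both Npac arrays were lower (log2 difference -0.78, SE 0.0591, limma adjusted p = 0.00342), and 99.2% of genes had a higher difference. Ier3 read 9.05 and 8.83 against 9.66 on both Npac arrays (log2 difference 0.72, SE 0.0908, limma adjusted p = 0.00967). Its call was lost without control array 2 (limma adjusted p = 0.0512), Npac array 1 (0.0557) or Npac array 2 (0.0648), and with spike-in scaling (0.18, limma adjusted p = 0.126), in a range of 5.52e-05 to 0.126 over the settings.

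**Figure D2:**
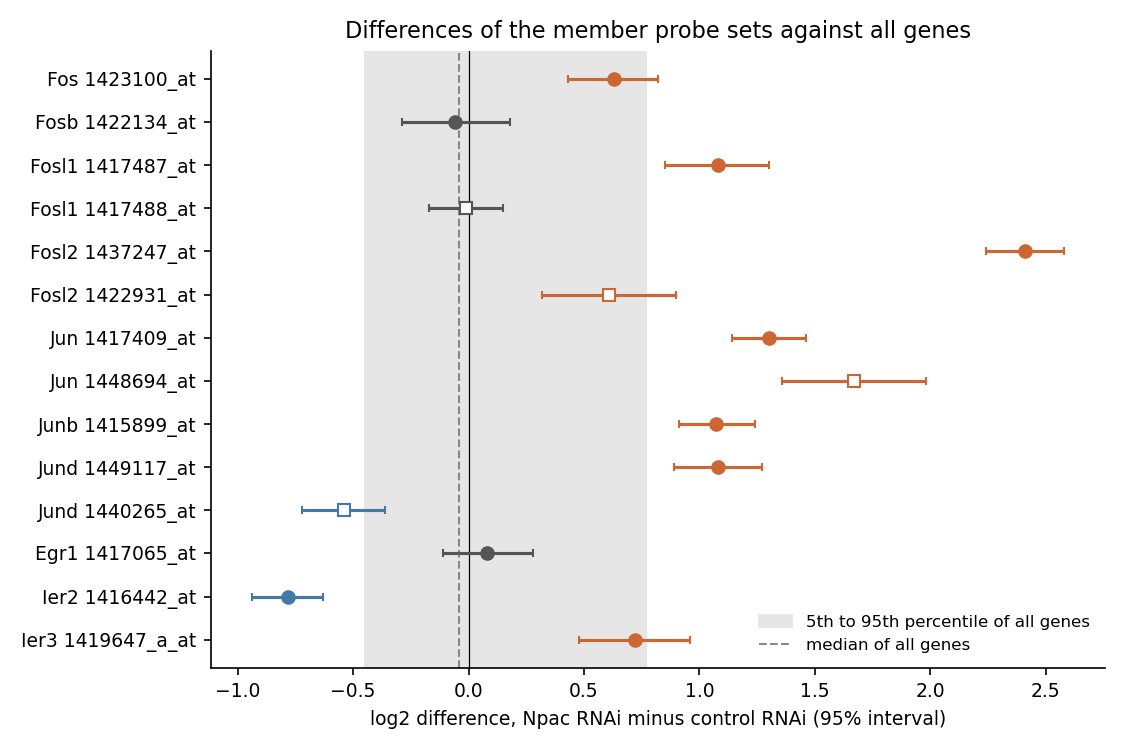
Log2 difference, Npac RNAi minus control RNAi (horizontal axis), of the 14 member probe sets with limma's 95% intervals as bars; orange is called higher, blue called lower and grey not called. Filled circles are the probe sets that represent a gene, open squares the others, the grey band spans the 5th to 95th percentile of all genes (-0.45 to 0.77) and the dashed line is their median (-0.04); Fosl2, Jun, Jund, Fosl1 and Junb lie to the right of the band on their brightest probe set and Ier2 to the left.

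On the scale of the poly-A spike-ins, 5 members remained higher, namely Fosl2 (1.87), Jun (0.76), Fosl1 (0.54), Jund (0.54) and Junb (0.53), against 4.83% of all genes higher. Ier2 (-1.32), Egr1 (-0.46) and Fosb (-0.60) were then called lower, among 81% of all genes. Without any 1 array, 5 or 6 of the 7 higher members were called, fewest without control array 2 or Npac array 2, and Ier2 was called lower each time. Without limma's moderation 3 members were called higher (Fosl2, Jun and Junb), and the calls on Fosl1, Jund, Fos and Ier3 were lost.

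**Figure D3:**
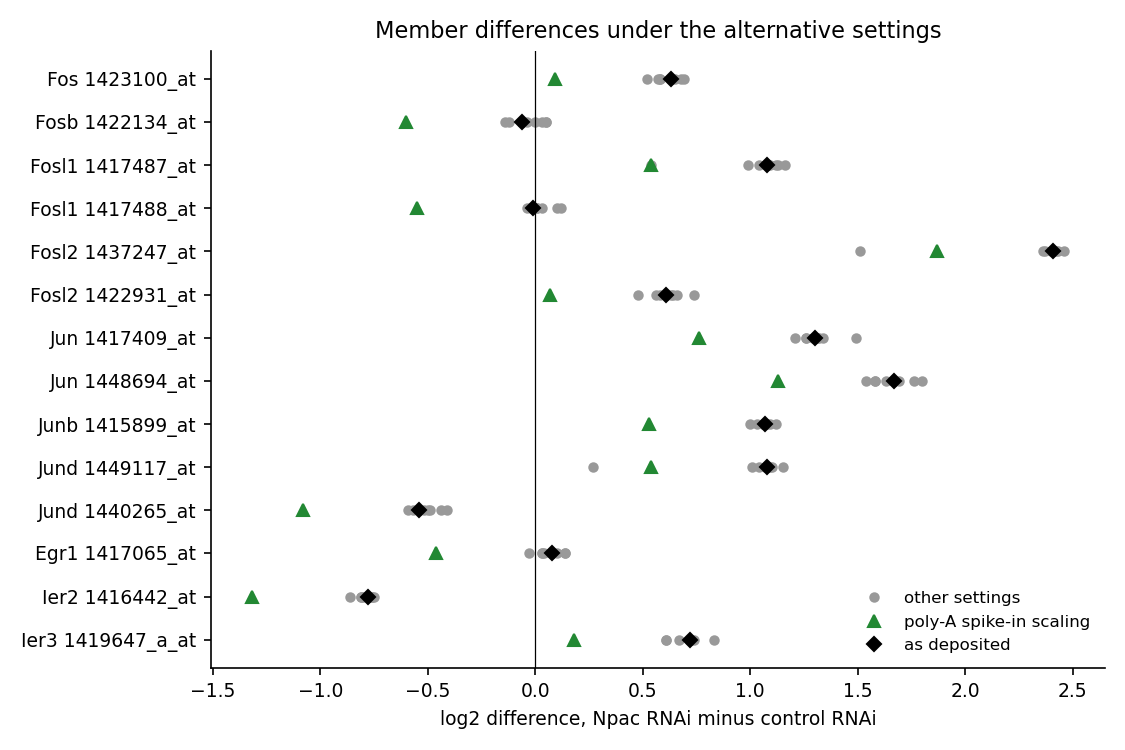
Log2 difference of each member probe set (horizontal axis) on the deposited values (black diamonds), with poly-A spike-in scaling (green triangles) and under the other settings (grey points). The Fosl2 probe set 1437247_at runs from 1.51 to 2.46 and Ier2 from -1.32 to -0.75, while Egr1 lies on both sides of 0.

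The other genes of the pathway were read from 5 lists written with earlier results of these data known. Together they held 164 genes, of which 146 were measured, 72 higher and 14 lower in Npac RNAi (19.3% and 14.6% over all genes). These counts depended on the arrays: leaving out control array 1 gave 46 higher, leaving out control array 2 gave 38, leaving out Npac array 2 gave 43 and leaving out Npac array 1 gave 52, and 1 to 3 were lower without any 1 array. With spike-in scaling 32 were higher and 71 lower, where 4.83% of all genes were higher and 81% lower.

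Other immediate early genes were more often higher than lower. Of 48, 29 were higher and 3 lower, or 60.4% and 6.25% (19.3% and 14.6% over all genes), with a median log2 difference of 0.46. With spike-in scaling 17 were higher and 19 lower, and with 1 array left out 19 to 24 were higher, fewest without control array 2. Ccn1, a secreted matrix protein and target of YAP and serum response factor, read 10.02 and 10.13 in control RNAi and 11.81 and 11.90 in Npac RNAi (log2 difference 1.78, SE 0.0721, limma adjusted p = 0.00124). Its 4 probe sets lay between 1.61 and 1.79. The stress gene Gadd45g went from 7.83 and 7.89 to 9.61 and 9.62 (1.75, SE 0.0585), and Phlda1, an early gene linked to growth arrest and survival, from 10.45 and 10.36 to 12.01 and 12.08 (1.64, SE 0.0666). Ier5, a relative of Ier2, went the other way from it on its brightest probe set, from 8.24 and 8.21 to 9.29 and 9.44 (1.14, SE 0.0735, limma adjusted p = 0.00253). The other Ier5 probe sets gave -0.32 and 0.33, and their mean with the brightest gave 0.39. The pluripotency-linked factor Klf2, also an embryonic stem cell marker here, was the bright member that fell (-0.40, SE 0.0567). Its call was lost without any 1 array, at a limma adjusted p of up to 0.0771, in a range of 1.94e-05 to 0.0771 over the settings.

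The relatives of Egr1 did not follow a common direction. Egr4 was lower, with 6.78 and 6.89 in control RNAi and 6.29 and 6.43 in Npac RNAi (log2 difference -0.48, SE 0.0803, limma adjusted p = 0.0181). That call was lost without any 1 array, at a limma adjusted p of up to 0.1, in a range of 0.000205 to 0.128 over the settings. Egr2 read 4.47 and 4.15 against 4.58 and 4.74, near the dim end of the array (0.35, SE 0.13, limma adjusted p = 0.109). Egr3 depended on the probe set. Its brighter one gave -0.40 (SE 0.121, limma adjusted p = 0.0701; called lower in 5 of 19 other settings) and the dim one, at 4.02 and 3.91 against 5.04 and 5.21, was called higher (1.16, SE 0.0847, limma adjusted p = 0.00324). The mean of both was called higher (0.38, limma adjusted p = 0.00829), within a range of 0.000524 to 0.269 over the settings.

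Among the bZIP relatives and possible partners of AP-1, 9 of 25 were higher and 5 lower, or 36% and 20% (19.3% and 14.6% over all genes), with a median of 0.20. Cebpb, a factor of inflammation and of differentiation, went from 9.85 and 9.90 to 11.63 and 11.59 (log2 difference 1.74, SE 0.0587, limma adjusted p = 0.0011), and its second probe set gave 1.64. Atf3, a stress-induced factor that pairs with Jun proteins and is also an immediate early gene, went from 7.31 and 7.16 to 8.31 and 8.48 (1.16, SE 0.0919, limma adjusted p = 0.00376). Nfe2l2, the Nrf2 gene of the antioxidant response, was 0.62 higher (SE 0.063), a call lost without control array 2 or Npac array 2 and with spike-in scaling (0.08), and 0.35 over the mean of its probe sets. Jdp2, a repressor that pairs with Jun, fell from 8.41 and 8.38 to 7.77 and 7.86 (-0.58, SE 0.0642, limma adjusted p = 0.00735) and by 0.36 on its dim probe set, and the call on the bright one was lost without either control array. Atf5, an ATF4-related stress factor, fell by 0.77 (SE 0.0555, limma adjusted p = 0.00311). Atf2, a partner of Jun, was lower on its brightest probe set (-0.32, SE 0.0638), and its 5 probe sets ran from -0.61 (limma adjusted p = 0.00548) to -0.28, with 4 of them called. Batf, an inhibitory partner known from lymphocytes, was also lower (-0.35, SE 0.082). The calls on the brightest Atf2 probe set and on Batf were lost without any 1 array. With 1 array left out, 2 to 5 of this list were higher, fewest without control array 2, and 1 or 2 lower, and spike-in scaling gave 3 higher and 14 lower.

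Of 26 measured genes that act upstream, 9 were higher and 3 lower (34.6% and 11.5%, against 19.3% and 14.6% over all genes), with a median of 0.20. Without any 1 array 2 to 5 were higher, fewest without control array 2 or Npac array 2, and limma called 0 lower each time (3 to 4 lower at an unadjusted p under 0.05). With spike-in scaling limma called 0 higher (0 also at an unadjusted p under 0.05) and 16 lower, and the median was -0.34. Srf, the gene of serum response factor, read 8.56 and 8.58 against 8.76 and 8.82 on its brightest probe set, without overlap but short of the threshold (0.21, SE 0.0588, limma adjusted p = 0.057), and 0.02 on the other. It was called higher in 4 of 19 other settings and lower with spike-in scaling (-0.33, limma adjusted p = 0.0136, in a range of 0.0136 to 0.292). Its Ets partners also had no call, with Elk1 at 0.18 (95% interval -0.10 to 0.45), Elk3 at 0.65 (0.17 to 1.12) and Elk4 at 0.25 (0.06 to 0.45). Those values are from the brightest probe sets, and no other probe set of these genes was called. The others gave -0.24 and -0.18 for Elk1, 0.11, 0.03 and 0.31 for Elk3, and -0.17, -0.27 and -0.03 for Elk4. Elk3 was called higher in 6 and Elk4 in 4 of 19 other settings. With spike-in scaling Elk1 (-0.36, limma adjusted p = 0.0322, in a range of 0.0322 to 0.682) and Elk4 (-0.29, limma adjusted p = 0.0203, in a range of 0.0125 to 0.628) were called lower. Mrtfb, a coactivator of serum response factor that senses actin, was 0.73 higher (SE 0.0591, limma adjusted p = 0.00397) on its brightest probe set and 0.27 over the mean of its 3 probe sets. The p38 substrate kinase Mapkapk2 was 0.70 higher (SE 0.066) and the MEF2 family member Mef2d 0.61 higher (SE 0.0667) on its brightest probe set. The other Mef2d probe sets gave 0.74 (called higher) and -0.07 (no call). Map2k3, a kinase of p38, was 0.28 lower on its brightest probe set (log2 difference -0.28, SE 0.0576), a call lost without any 1 array. The other Map2k3 probe set gave -0.24 (limma adjusted p = 0.0586, no call). With spike-in scaling Mrtfb (0.19), Mapkapk2 (0.16) and Mef2d (0.07) had no call, and the call on Mef2d was also lost without control array 2 (limma adjusted p = 0.0577) or Npac array 2 (0.0556), in a range of 2.93e-05 to 0.492.

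The list written for products that limit AP-1 or Egr1 gave 9 higher and 1 lower of 18 (50% and 5.56%, against 19.3% and 14.6% over all genes), with a median of 0.27. It also holds Cops5 (0.28, called higher), whose product is known as a Jun coactivator, and Ier3ip1 (0.05, no call), not known as a limiter. Zfp36, an RNA-binding protein that speeds decay of early gene transcripts, read 7.35 and 7.06 in control RNAi and 8.46 and 8.61 in Npac RNAi (log2 difference 1.33, SE 0.119, limma adjusted p = 0.00469). Dusp1, a phosphatase of MAP kinases and itself an immediate early gene, read 10.34 and 10.35 against 11.67 and 11.66 (1.32, SE 0.0548, limma adjusted p = 0.00124), and the related Dusp4 was 0.96 higher (SE 0.0632). Nab1, a corepressor of Egr proteins, went from 9.80 and 9.77 to 10.48 and 10.45 (0.68, SE 0.0568, limma adjusted p = 0.00413), a difference that was 0.14 with spike-in scaling and 0.42 over the mean of its 3 probe sets. The related Nab2 had no call (0.29, SE 0.0941, limma adjusted p = 0.0839). The lower member was Jdp2. Without any 1 array 4 to 6 of the list were higher, fewest without either control array, and with spike-in scaling 3 were higher and 10 lower.

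Of 39 genes reported as AP-1 targets, 21 were higher and 4 lower (53.8% and 10.3%, against 19.3% and 14.6% over all genes), with a median of 0.40. Without any 1 array 14 to 16 were higher, and limma called 0 lower each time (3 to 5 lower at an unadjusted p under 0.05). The simple-epithelial keratin Krt7 had the largest difference, from 7.90 and 7.70 to 10.29 and 10.36 (log2 difference 2.52, SE 0.0889, limma adjusted p = 0.0011). It is also among the trophoblast markers, which rose. The calcium-binding S100a6 went from 11.23 and 11.28 to 13.13 and 13.18 (1.90, SE 0.0591), and Plaur, the urokinase receptor, from 8.86 and 8.79 to 10.42 and 10.59 (1.68, SE 0.0824, limma adjusted p = 0.00161). The matrix protein Fn1 fell from 12.07 and 12.05 to 11.65 and 11.68 (-0.40, SE 0.0558) and the cell cycle gene Ccnd1 by 0.24 (SE 0.0598) on its brightest probe set, and both calls were lost without any 1 array. The Fn1 values are from its brightest probe set, and its other probe set gave -0.55 (limma adjusted p = 0.0107, called lower). The other Ccnd1 probe sets gave -0.56 (limma adjusted p = 0.00581, called lower) and -0.18 (limma adjusted p = 0.0807). Fn1, Vim and S100a4 are also on the feeder fibroblast list. With spike-in scaling 12 targets were higher and 17 lower.

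**Figure D4:**
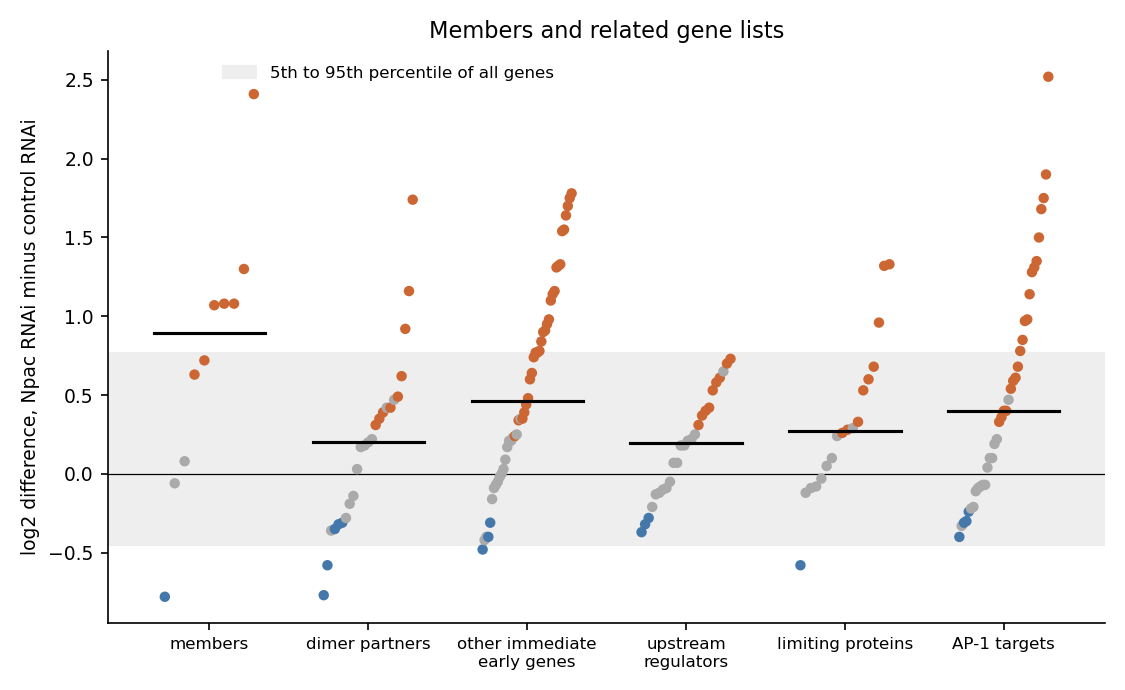
Log2 difference, Npac RNAi minus control RNAi (vertical axis), of the 10 members and of the genes of the 5 related lists, each gene a point read from its brightest probe set, ordered by value within its column; orange is called higher, blue called lower and grey not called. Black lines are medians (0.90 for the members, 0.46 for other immediate early genes, 0.40 for targets) and the grey band spans the 5th to 95th percentile of all genes (-0.45 to 0.77).

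The genes most like Fosl2 over the 4 arrays, by Euclidean distance of log2 values after subtraction of each gene's control mean with dim genes (under the median level) left aside, were Tagln (distance 0.0728), Perp (0.114), Cldn4 (0.133), Gata3 (0.137) and Cryab (0.148). With 4 arrays in 2 groups this measure mostly reflects the size of the difference, which was 2.38 for the actin-binding gene Tagln, 2.45 for the p53 target Perp, 2.36 for the tight junction gene Cldn4, 2.32 for the trophoblast regulator Gata3 and 2.51 for the small heat shock protein gene Cryab.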

How the data were processed

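The authors deposited 1 log2 expression value per probe set and array for 4 arrays, made with RMA per the submitters' processing notes, with no version given. The log base was inferred from the values (2.78 to 15.05). RMA makes arrays alike, so a shift shared by most transcripts is not seen, and 4 arrays limit the precision. Control probe sets (64) were left out. A single symbol was held by 34945 probe sets, several by 932 and none by 9160. Of the single symbols, 34741 were matched to current ones through Entrez identifiers (RefSeq, GRCm38.p6), whether or not the symbol changed. The remaining 45037 probe sets were fitted with limma 3.58.1 in R 4.3.3 (lmFit, eBayes, group only), with Benjamini-Hochberg adjustment over all of them and calls at an adjusted p under 0.05. The procedure was run on simulated data with independent noise, variances drawn from limma's own fit and no shift between arrays. That run tests the code and not whether these arrays meet limma's assumptions. A gene was read from its probe set with the highest mean. The members and lists were chosen with earlier results of these data known. Named were all members, Glyr1, 13 fixed relatives, and in each list up to 3 called genes per direction with the largest difference at or above the median level of genes (7.49). Other genes mentioned were chosen after their values were seen. Same-numbered arrays did not deviate together (correlation -0.145), so replicate numbers were not used as pairs. Alternatives covered the empirical Bayes step, normalization, spike-in scaling, dim filters, probe set choice, thresholds, replicate blocks and each array left out.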

Additional observations from a re-analysis of the deposited data

Results flagged for a closer look

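The 24 poly-A spike-in probe sets (dap, lys, phe and thr), which no comparison of the study uses, read higher in Npac RNAi than in control RNAi by 0.54 on the log2 scale, in 24 of 24. The 18 hybridization control probe sets, added after labelling, read 0.12 higher, in 18 of 18. These probe sets are repeated readings of a few transcripts. The rises of Fos (0.63), Ier3 (0.72) and the dimmer Fosl2 probe set (0.61) were of a similar size.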

How the results depend on the processing

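Over 19 settings Fosl2 (1437247_at), Jun (1417409_at), Junb and Ier2 kept direction and call. Members higher, 7 on all arrays, were 3 without moderation and 5 to 6 with 1 array left out; members lower, 1, were 3 with spike-in scaling and 1 with each array left out. Member probe sets higher, 9, were 3 without moderation and 6 to 8 with 1 array left out; those lower, 2, were 5 with spike-in scaling, 1 without moderation, among probe sets at or above the median level, with 1 probe set per gene, at 1.5-fold and for probe sets averaged per gene, and 1 to 2 with 1 array left out. Of all probe sets 6378 were higher and 6327 lower. These became 1100 and 793 without moderation, 1506 and 38240 with spike-in scaling, 4020 and 3405 with 1 probe set per gene, 3381 and 3398 on averaged probe sets, 2565 and 1172 at an adjusted p under 0.01, 2633 and 878 at 1.5-fold, 3219 and 1668 with the replicate block, and 1592 to 2890 and 468 to 1347 with 1 array left out. Genes of the 5 lists, 72 higher and 14 lower, were 23 and 2 without moderation and 32 and 71 with spike-in scaling. At 1.5-fold they were 47 and 1, and with 1 array left out 38 to 52 and 1 to 3. Lower genes of the lists were 2 at an adjusted p under 0.01, 3 with the replicate block and 8 with the crossed block, which was added after the data were seen because the correlation was negative. With the crossed block 5173 probe sets were higher and 4327 lower. The replicate block left the member counts at 7 and 1. Values that had no call on the deposited values turned sign as follows, some with a call the other way. Fosb was 0.05 after quantile normalization, 0.05 after cyclic loess and ran from -0.14 to 0.03 with 1 array left out. The dim Fosl1 probe set was 0.10 after quantile normalization, 0.01 after centring, 0.12 after cyclic loess and -0.04 to 0.03 with 1 array left out. Egr1 was -0.03 after quantile normalization and -0.46 with spike-in scaling. With spike-in scaling Egr1, Srf (-0.33), Elk1 (-0.36) and Elk4 (-0.29) were called lower, and Egr2 (-0.19) and Nab2 (-0.25) had no call. With the mean of probe sets Egr3 was called higher (0.38), and Elk1 (-0.08) and Elk4 (-0.05) had no call. Spike-in scaling subtracts a separate offset from each array, which shifts every difference by the same amount and also changes the SEs. Leaving out an array or moderation lowers the power. The cause of the other changes was not tested. Fosb and the dim Egr3 probe set lie below the 25th percentile of levels (4.84), where signal over background limits what can be said.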
